A study of Mus musculus with 8 samples.

Results

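The genes described here are 38 immediate-early and heat shock genes that tissue digestion and cell sorting are known to induce. They were taken as a list by name, 27 immediate-early genes and 11 heat shock genes, out of 35498 genes with summed transcripts. All 38 were among the 16309 genes that passed the filter on low counts and were tested. Immediate-early genes are switched on within minutes of a stimulus without new protein synthesis, mainly through serum response factor, its ternary complex partners and CREB, and many encode transcription factors or short-lived feedback proteins. Heat shock genes encode chaperones that fold or refold proteins, and heat shock factors drive them when unfolded protein accumulates. Cells taken from solid tissue by enzymes and sorted commonly show both programs.

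Bulk RNA was sequenced from mouse sarcoma cells to learn which pathways inside tumour cells depend on the Mif they produce. Mif encodes a secreted cytokine, macrophage migration inhibitory factor. There were 4 groups with 2 libraries each. By the labels, the cells of every group were C57BL/6 mesenchymal stem cells that had lost p53 and overexpressed Ccne1, which encodes cyclin E1, and that had already formed a tumour in a first recipient mouse. In the 8 libraries the Trp53 transcript was at 72.9 to 126 CPM (counts scaled to a common library size) and Ccne1 at 8.66 to 20.6 CPM, and with no unmodified cells analysed here these levels do not check either modification. The sgSCR and sgMif groups, labelled Mif wild type and Mif knockout, carried Cas9 with a control guide RNA or a guide against Mif. The shSCR and shMif groups, labelled Mif wild type and Mif knockdown, carried a control short hairpin RNA or a hairpin against Mif. For these hairpin groups the series' design text lists Cas9 too, while the growth protocol gives it for the guide samples only. Cells of all groups were grown under the skin of second recipients on polyurethane scaffolds to tumours of about 1 cubic centimetre, digested, sorted on a fluorescent marker and lysed in TRIzol. Whether both libraries of a group derive from different mice is not stated, so a p-value here reflects the variation among these 8 libraries alone, and that variation may be technical. Since every library was digested and sorted, levels set in the tumour and levels set during handling cannot be told apart.

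The libraries held 19042235 to 51819308 reads. Levels are given as CPM, and levels of different genes are compared in TPM, which is per transcript length. Mif itself was at 377 and 455 CPM in sgSCR, 221 and 222 in sgMif, 170.2 and 375 in shSCR, and 277 and 222 in shMif. Both sgMif values were below both sgSCR values, whereas the libraries labelled shMif lay between the shSCR libraries. The Mif transcript thus does not bear out the label of the knockdown. With the shSCR libraries this far apart, it does not settle it either. Directions below are given for the libraries labelled shMif. All 10 mesenchymal markers were detected, and they summed to 29870 to 52686 CPM. Of the other cell types, 14 macrophage markers summed to 133 to 528 CPM, 7 host skin fibroblast markers to 369 to 1614, 7 endothelial markers to 52.4 to 299, 5 pericyte markers to at most 474 and 6 neutrophil markers to 359 to 735, with the defining neutrophil marker Ly6g at 0 in all 8 libraries. Single genes carried most of the sums of 3 lists in every library: Mmp9 alone had 352 to 729 CPM of the neutrophil sum, Cspg4 234 to 464 of the pericyte sum and Dcn 192 to 1238 of the fibroblast sum. Pecam1, at 20.8 to 261 CPM, carried most of the endothelial sum in 5 of 8 libraries. Pan-leukocyte markers summed to 28.2 to 122 CPM, T and NK cell markers to 2.69 to 18.3, B cell markers to 3.31 to 62.9, keratinocyte markers to 2.05 to 4.38 and erythroid markers to 1.25 to 51.9. In bulk RNA, fewer cells of a type and less RNA per cell cannot be told apart.

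By median TPM over the 8 libraries, the members ranged from Hspa8, the constitutive cytosolic HSP70 chaperone, at 3884 TPM (3451 to 5279) down to the small heat shock protein gene Hspb1 at 3.17 TPM (0.825 to 6.21). The FOS and JUN genes, whose products pair to form the AP-1 transcription factor, were led by Fos at a median of 1512 TPM (1277 to 1695) and Jun at 1273 TPM (798 to 1748). Hsp90aa1, the inducible cytosolic HSP90, stood at 1363 TPM (1198 to 2361). The ranges of Fos, Jun and Hsp90aa1 overlapped, so their order is not set beyond the spread between libraries. The leading member of each further role was Hspd1 at 482 TPM, Ier3 at 400.3 TPM, Dusp1 at 389 TPM, Dnaja1 at 324 TPM, Klf6 at 277 TPM, Nr4a1 at 136 TPM, Bag3 at 88.4 TPM, Egr1 at 73.9 TPM and Myc at 70.3 TPM. Summed over the 27 immediate-early genes, the levels were 16412 and 18327 CPM in sgSCR, 12848 and 16408 in sgMif, 9013 and 15806 in shSCR, and 19622 and 15900 in shMif. The shSCR 1 library had the lowest immediate-early sum and shMif 1 the highest. Summed over the 11 heat shock genes, the levels were 6143 and 5529 CPM in sgSCR, 5598 and 6338 in sgMif, 7831 and 7467 in shSCR, and 7332 and 6683 in shMif. Both shSCR sums were above both sgSCR sums. Hspa8, at 2414 to 3666 CPM, and Hsp90aa1, at 983 to 1860, together carried most of the heat shock sum in every library. Of the 11 genes, 6 were higher in both shSCR than in both sgSCR libraries, against 28.4% of all genes tested. Hspa1a, Dnajb1 and Bag3 were lower in both, 3 of 11 against 26.3%.

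**Figure D1:**
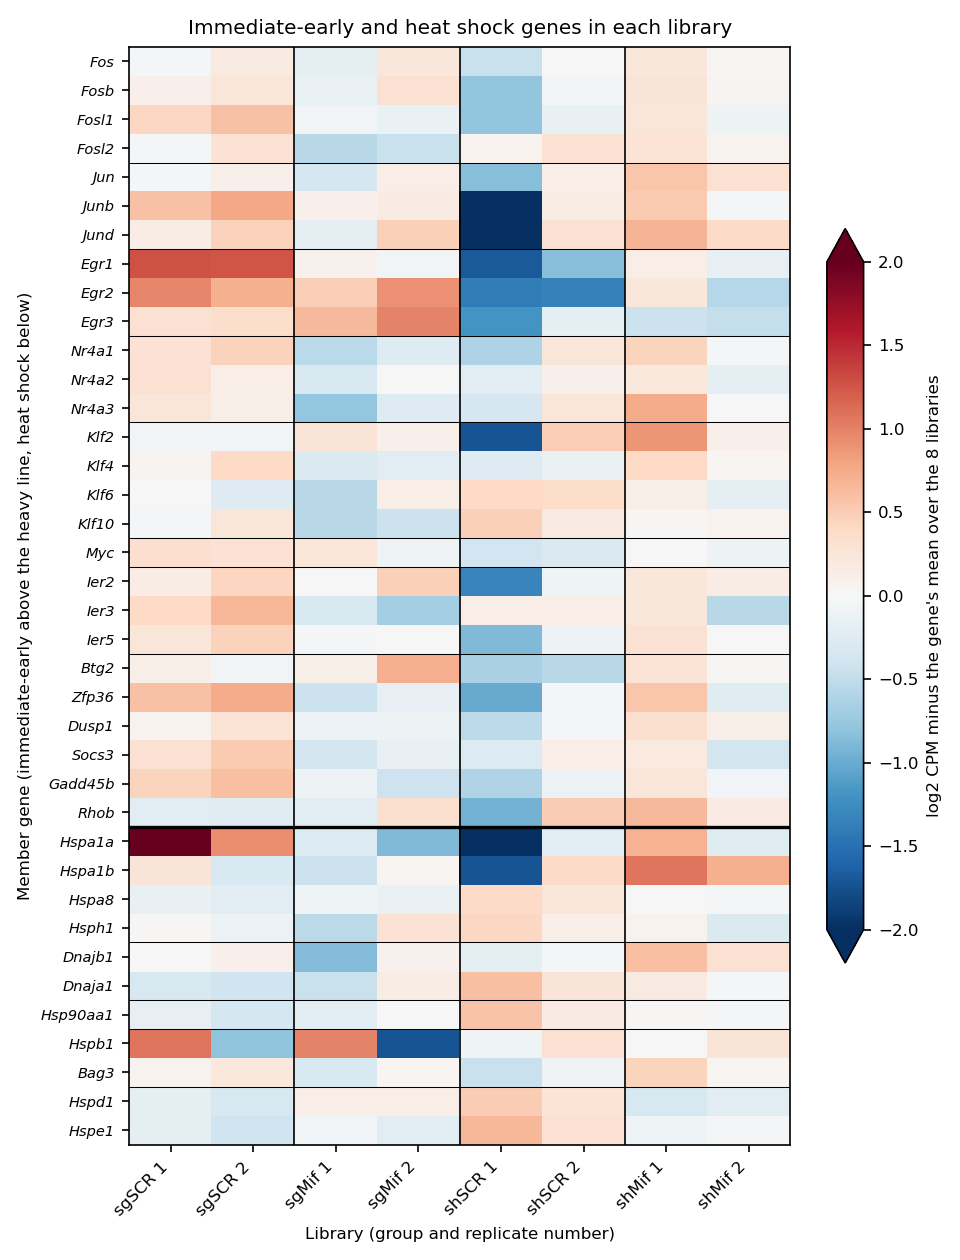
Level of each of the 38 members (rows, grouped by role) in each of the 8 libraries (columns), as log2 CPM minus the gene's own mean over the 8 libraries, with colours saturated beyond 2 in either direction. The shSCR 1 library is the lowest for 19 of 27 immediate-early genes (blue), while 6 of the 11 heat shock genes are highest there (red).

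The shSCR 1 library stood apart for these genes. Values without it are given below for shMif against shSCR, shSCR against sgSCR and the difference of the Mif effects, and beside some members. Other members moved as widely in shMif against shSCR. Over the alternative settings the log2 fold change there ran from 0.23 to 2.97 for Jund, 0.052 to 2.61 for Klf2 and -0.086 to 1.59 for Rhob. The shSCR 1 library was the lowest of the 8 libraries for 22 of 38 members, 19 of them immediate-early, and the highest for 8, 6 of them heat shock genes. Its departure moved with GC content. The members' most-read transcripts were GC-rich, with a median of 54.0% against 49.8% over 16294 tested genes with a value. Over all tested genes with 60 to 65% GC, the median log2 level in shSCR 1 against the other 7 libraries was -0.82, and at 65 to 70% it was -1.43. The 4 members between 60 and 65% had a median of -1.73 there, and Jund, the member between 65 and 70%, had -2.61. In the other libraries the medians of these classes over all genes ran from 0.026 to 0.41. The log2 ratio of shSCR 1 to shSCR 2 correlated with GC content at r = -0.77 over the 38 members and at r = -0.41 over 16294 genes. Genes within these libraries share depth and preparation, so these correlations are descriptions. With the GC trend of each library removed, 7 of 38 members differed over 2-fold between the shSCR libraries, against 5.33% of all genes. Of the 27 immediate-early genes, 24 were then higher in shSCR 2, with a median log2 ratio of shSCR 2 to shSCR 1 of 0.44.

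The range of base composition among the members is shown by the first 90 coding bases of Jund, a JUN family gene, and Dnaja1, an HSP40 co-chaperone, read from the annotated transcripts with every G and C in capitals. The stretch of Jund is 71.1% GC and that of Dnaja1 41.1%. Other members are less far apart over these bases: Junb, also lowest in shSCR 1, has 56.7% and Hsp90aa1, also highest there, 52.2%. Over the whole coding sequence these have 64.8 and 43.4%.
Jund: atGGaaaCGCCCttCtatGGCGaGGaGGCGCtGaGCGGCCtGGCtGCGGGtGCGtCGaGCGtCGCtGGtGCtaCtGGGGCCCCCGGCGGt
Dnaja1: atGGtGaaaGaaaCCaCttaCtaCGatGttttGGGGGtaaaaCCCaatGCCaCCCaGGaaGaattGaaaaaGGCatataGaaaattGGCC
Jund was at 204 CPM in shSCR 1 and 883 to 1595 CPM in the other 7 libraries. Dnaja1 was at 432 CPM in shSCR 1 and 208 to 339 CPM elsewhere. The GC-rich gene was thus lowest, and the GC-poor gene highest, in the same library. Members whose most-read transcript has 1 exon, 10 of 38 against 10.1% of all genes, had a median log2 ratio of shSCR 1 to shSCR 2 of -1.34, and the other 28 members -0.20. The share of the members' reads on retained-intron transcripts reached 6.59% in shSCR 1, beside 3.13 to 4.70% elsewhere. Over the reads of all genes it was also highest there, at 5.42%, beside 3.90 to 4.85% elsewhere. The part of base composition, exon number or RNA quality in the levels of single members was not tested, beyond a fit with the GC trend of each library removed, which was chosen after the data were seen.

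**Figure D2:**
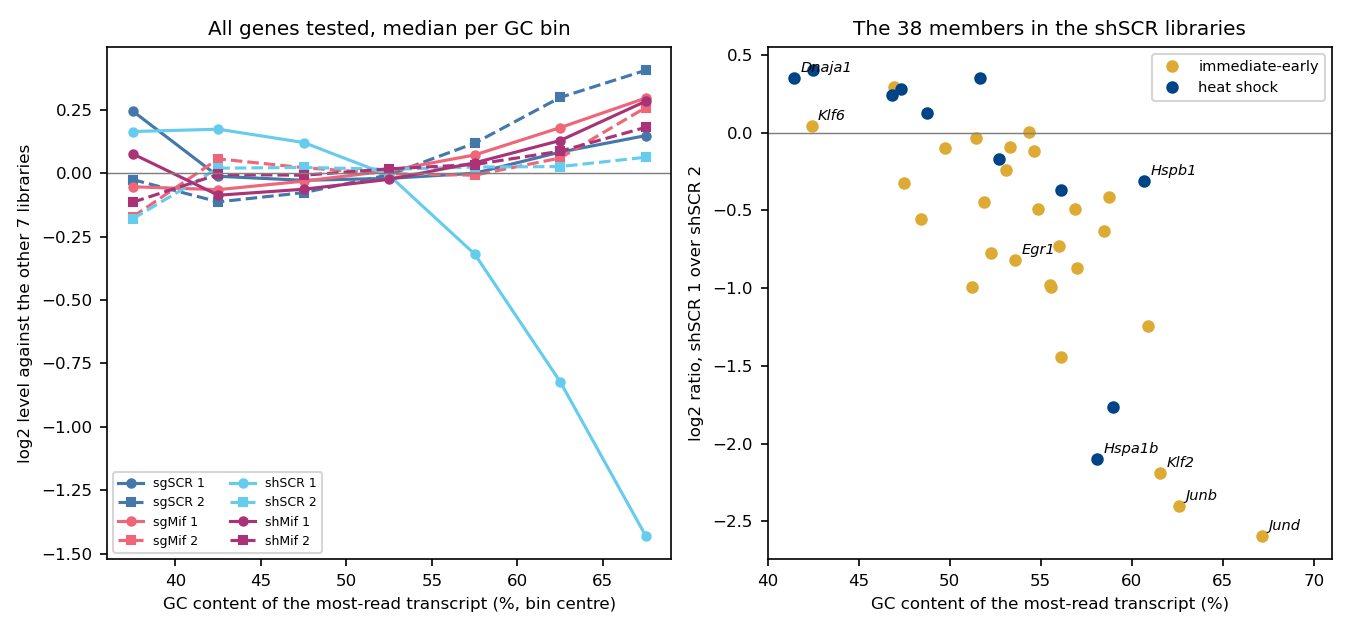
Left, median log2 level of all tested genes in each library against the other 7, by GC content in bins of 5 percentage points; the lines stand for the 8 libraries (solid, replicate 1; dashed, replicate 2). Right, log2 ratio of shSCR 1 to shSCR 2 for the 38 members against GC content, in which the GC-rich Jund lies lowest and the GC-poor Dnaja1 and Hsp90aa1 above 0.

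In sgMif against sgSCR, 0 of 38 members passed edgeR's quasi-likelihood test at an adjusted p of 0.05, against 0.987% of all genes tested (0.368% higher and 0.619% lower). At an unadjusted p under 0.05, 11 members were lower and 1 was higher, against 16.6% of all genes in either direction. DESeq2 called 7 members, all lower, against 6.58% of the genes it tested. Of the 27 immediate-early genes, 23 had a log2 fold change below 0, against 50.5% of all genes. Their median log2 fold change was -0.36, beside -0.0057 over all genes. The 11 heat shock genes had a median of -0.021, with 6 below 0. Both sgMif libraries were below both sgSCR libraries for 18 of 38 members, against 24.2% of all genes, and above both for 6, against 27.1%. Markers of other cells moved with this contrast: macrophage markers summed to 255.5 to 528 CPM in sgSCR and 133 to 163 in sgMif with 2 of 14 past the test as lower, and host skin fibroblast markers to 1318 to 1614 and 369 to 512 with 1 of 7 lower. Their part in the members' values was not tested.

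In shMif against shSCR, 0 of 38 members passed edgeR's test, against 0.0184% of all genes, none of them lower. At an unadjusted p under 0.05, 8 were higher and 3 lower, against 9.26% of all genes, and DESeq2 called 2 higher and 1 lower, against 1.38%. The immediate-early genes had a median log2 fold change of 0.47, with 5 of 27 below 0 against 46.9% of all genes, and the heat shock genes one of -0.34, beside 0.032 over all genes. Both shMif libraries were above both shSCR libraries for 17 of 38 members, against 19.4% of all genes, and below both for 8, against 22.3%. The counts and medians depended on the control library. Without shSCR 1, 0 members passed, against 0.0287% of all genes, and the medians were 0.21 for the immediate-early and -0.17 for the heat shock genes. Without shSCR 2, which leaves shSCR 1 as the lone control, 13 members passed, against 4.33% of all genes, and the medians were 0.80 and -0.40. For the difference between the Mif effects of the hairpin and guide systems, 0 of 38 members passed, against 0.092% of all genes (0.0858% higher and 0.00613% lower). The log2 difference was below 0 for 8 of 38, against 47.6% of all genes. There 15 members at an unadjusted p under 0.05 were higher and 2 lower, against 15.8% of all genes, and DESeq2 called 7, against 4.54%. The edgeR count was 15 without shSCR 2, against 3.01% of all genes, and 1, Egr1, without shSCR 1, against 0.103%. With all libraries the medians were 0.79 for the immediate-early and -0.36 for the heat shock genes, beside 0.040 over all genes. Without shSCR 1 they were 0.47 and -0.23, beside 0.0077, and without shSCR 2 they were 1.06 and -0.49, beside 0.13. For the joint effect of the Mif label over both systems, 0 of 38 passed, against 0.0% of all genes. The log2 fold change was below 0 for 21 of 38, against 50.1% of all genes. There 1 member was higher and 2 lower at an unadjusted p under 0.05, against 8.01%, and DESeq2 called 0, against 1.98%. The contrasts of sgMif and of shSCR share the sgSCR libraries, and those of shMif and of shSCR share the shSCR libraries.

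The remaining contrast set the control groups against each other. In shSCR against sgSCR, 5 of 38 members passed edgeR's test, 2 higher and 3 lower, against 4.02% of all genes (2.23% higher and 1.79% lower). The immediate-early genes Egr1, Egr2 and Myc were lower and the mitochondrial chaperonin genes Hspd1 and Hspe1 higher. At an unadjusted p under 0.05, 5 were higher and 13 lower, against 22.9%, and DESeq2 called 15 members, against 12.9% of the genes it tested. Both shSCR libraries were below both sgSCR libraries for 21 of 38 members, against 26.3% of all genes, and above both for 7, against 28.4%. The median log2 fold change was -0.50 for the immediate-early genes, 23 of which were below 0 against 52.4% of all genes, 0.33 for the heat shock genes and -0.039 over all genes. Without shSCR 1, 2 members passed, Egr1 and Egr2, against 0.937% of all genes, and the medians were -0.28 for the immediate-early and 0.39 for the heat shock genes. Without shSCR 2, 23 passed, against 10.5% of all genes, and the medians were -0.89 and 0.47. With the GC trend removed 7 passed, the same 5 with Fosl1 and Gadd45b, both lower. How many of all genes passed under that fit is given with the alternatives below. This contrast holds the Mif label constant and differs in guide against hairpin, and, as far as the labels say, in anything else that set these tumours apart, which cannot be told apart. Macrophage markers summed to 282 to 315 CPM in shSCR, within the range of sgSCR, with 1 of 14 lower by the test. Single macrophage markers went both ways. Cd68, Mrc1 and Cd163 had lower CPM in both shSCR than in both sgSCR libraries, and Lyz2, Laptm5 and Itgam higher. Host skin fibroblast markers summed to 757 to 929 CPM, below sgSCR, with 3 of 7 lower. Of that list Cd34 and Ly6a had higher CPM in both shSCR than in both sgSCR libraries. By the test 2 of 10 mesenchymal markers were higher and 0 lower. By CPM, Col1a1, Col1a2, Col3a1, Pdgfrb and Thy1 were lower in both shSCR than in both sgSCR libraries, and Vim, S100a4 and Fn1 higher. Col1a1 was at 1979 and 3587 CPM in shSCR and 7106 and 6885 in sgSCR. The part of these markers in the result was not tested.

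**Figure D3:**
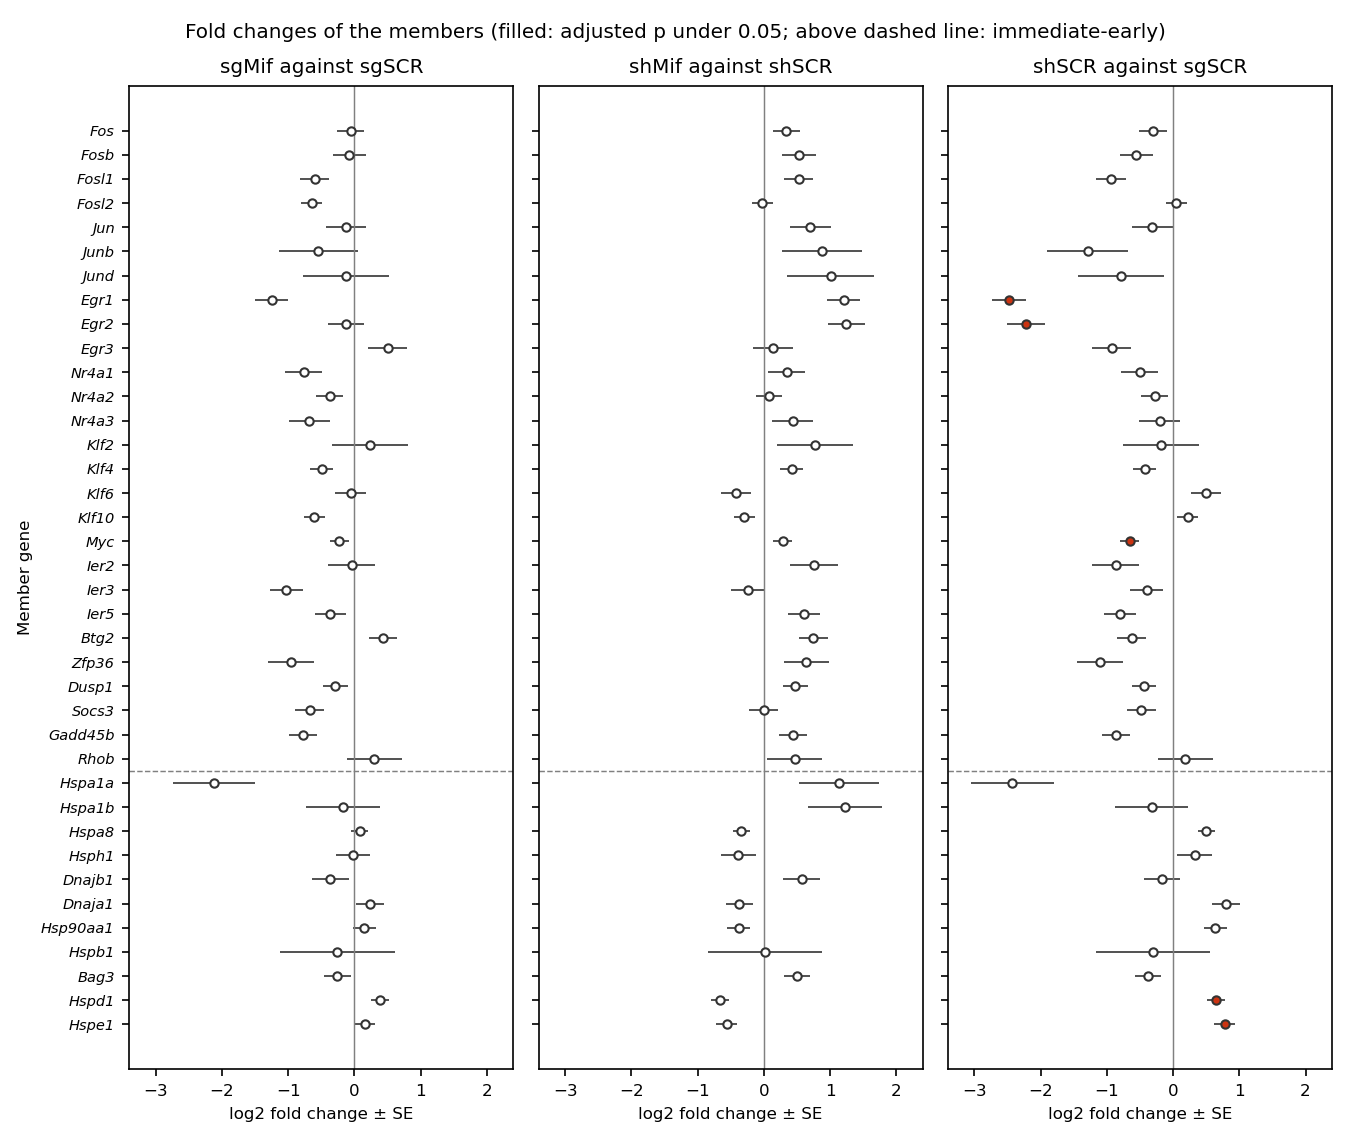
Log2 fold change of each of the 38 members with its standard error (horizontal bars) from edgeR in 3 comparisons, with filled points for an adjusted p under 0.05. Only the panel of shSCR against sgSCR has filled points: Egr1, Egr2 and Myc to the left of 0 and Hspd1 and Hspe1 to the right.

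The EGR family encodes zinc finger transcription factors at the head of the immediate-early program. Egr1 was at 493 and 485 CPM in sgSCR, 215 and 196 in sgMif, 63.3 and 112 in shSCR, and 224 and 182 in shMif. Both sgSCR libraries were the highest and both shSCR libraries the lowest, while sgMif and shMif overlapped. In shSCR against sgSCR Egr1 was lower by edgeR's quasi-likelihood test, with a log2 fold change of -2.48 ± 0.26 (SE, n = 2 against 2 libraries) and an adjusted p of 0.00471. It passed under 21 of 21 alternative settings, with adjusted p from 1.12e-35 to 0.0366, and the log2 fold change was -2.11 without shSCR 1 and -2.46 with the GC trend removed. The smallest of these adjusted p came from the fit with no filter on low counts, as did the smallest for Egr1 in the contrasts below. Some of the settings left out a library of sgMif or shMif, which are not in this contrast. The transcript of Egr1 is 53.6% GC. In shSCR 1 all genes of 50 to 55% GC had a median log2 level of -0.0086 against the other 7 libraries. The 12 members in that range had a median of -0.48 there. Beyond the fit with the GC trend removed, the part of GC content in the Egr1 value was not tested. In sgMif against sgSCR its log2 fold change was -1.25 ± 0.25 with an adjusted p of 0.0643, and it passed under 9 of 21 alternatives (adjusted p 1.81e-09 to 0.281). Among these were the fits without shSCR 1 (adjusted p 0.0106), without shSCR 2 (0.0122) and with the GC trend removed (0.0426), in which the log2 fold change stayed between -1.25 and -1.24. In shMif against shSCR the value was 1.21 ± 0.25 (adjusted p 0.352, with 4 of 21 alternatives past the threshold from 2.86e-08 to 0.999). It was 1.68 without shSCR 2, with the call made there, and 0.85 without shSCR 1. The difference of the Mif effects was 2.46 ± 0.35 (adjusted p 0.0719, 8 of 20 alternatives past the threshold, from 3.79e-18 to 0.229).

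Egr2 was at 38.3 and 31.8 CPM in sgSCR, 27.4 and 36.7 in sgMif, 7.39 and 7.59 in shSCR, and 22.7 and 13.1 in shMif. The shSCR libraries were the lowest and close to each other, the shMif libraries lay above them, and the guide groups overlapped at the top. Egr2 was lower in shSCR than in sgSCR by -2.23 ± 0.29 in log2 fold change (adjusted p 0.0103 by edgeR). It passed under 18 of 21 alternatives (1.51e-16 to 0.0937), the exceptions being counts scaled by transcript length (0.0937) and the fits without sgSCR 1 (0.0720) or sgSCR 2 (0.0672). Its log2 fold change in shMif against shSCR was 1.25 ± 0.28 (adjusted p 0.407), and in sgMif against sgSCR -0.13. Egr3 was at 37.4 and 38.8 CPM in sgSCR, 47.7 and 60.6 in sgMif, 13.2 and 26.8 in shSCR, and 22.5 and 21.8 in shMif, and passed in no comparison. For Egr3 the sgMif libraries were the highest, unlike for Egr1.

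The bases before the start of the principal Egr2 transcript are printed because they hold the element that binds serum response factor, the CArG box. They are RefSeq's promoter sequence in build GRCm38.p6 at chr10:67537619-67537868, plus strand, directly upstream of its first exon and within an intron of longer Egr2 transcripts, with the match in capitals.
Egr2: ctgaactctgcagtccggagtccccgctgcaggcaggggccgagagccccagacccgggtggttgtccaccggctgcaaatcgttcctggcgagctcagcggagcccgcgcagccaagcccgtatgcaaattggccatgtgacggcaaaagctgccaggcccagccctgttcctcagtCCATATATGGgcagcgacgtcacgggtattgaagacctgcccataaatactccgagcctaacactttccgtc
Promoter windows from 250 bases before to 50 after a start were found for 30 of the 38 members; Klf10, Fosl1, Egr3, Myc, Egr1, Ier2, Hsp90aa1 and Hspa8 had none in the table. The CArG box, on either strand, was in 5 of 25 immediate-early windows (20%), which belong to Egr2, with 4 windows that partly overlap, and Zfp36, against 1.63% of all 32851 windows. The cyclic AMP response element TGACGTCA, the site of CREB, was in 2 of 25 (8%), those of Btg2 and Dusp1, against 1.79% of all windows, on both strands. A match describes these letters and is not a site.

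**Figure D4:**
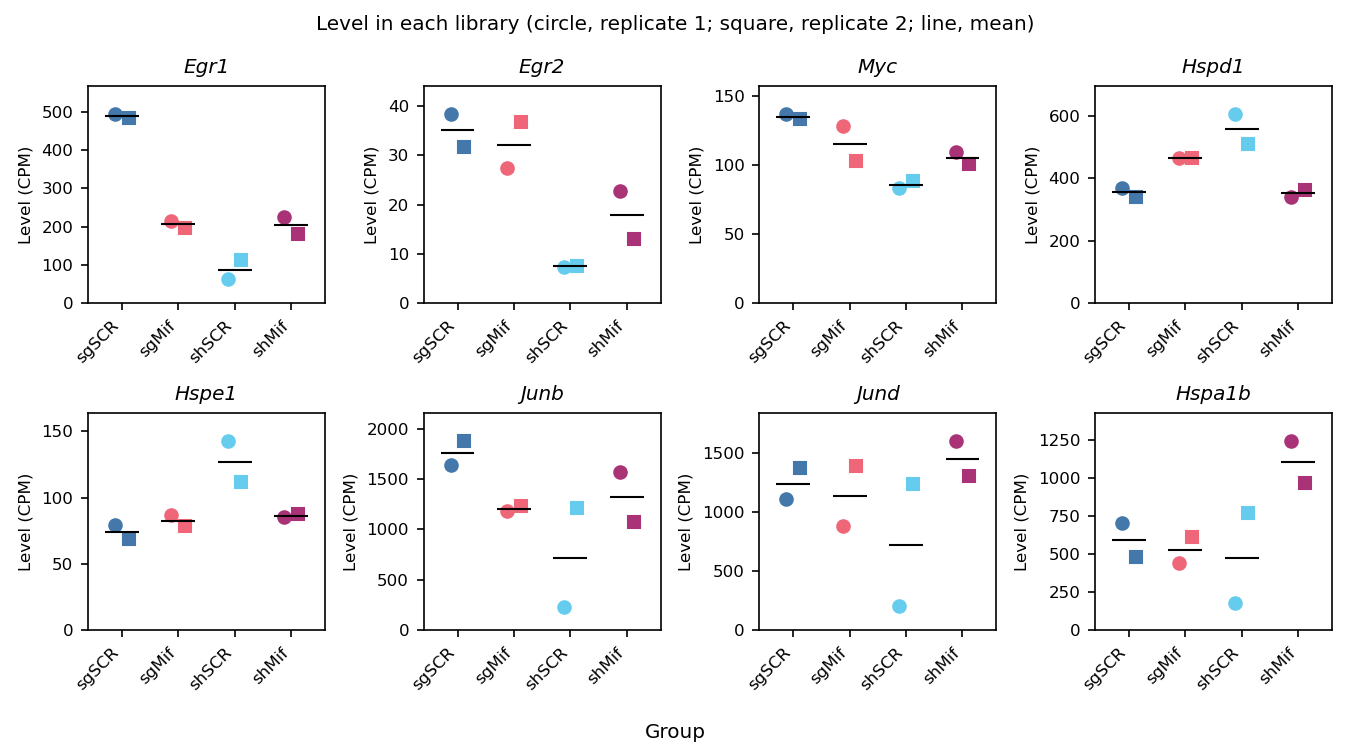
CPM in each library (circle, replicate 1; square, replicate 2) and group mean (line) of the 5 members that passed in shSCR against sgSCR and of Junb, Jund and Hspa1b, on linear axes from 0. The shSCR libraries agree for Egr2 and Myc, while for Junb, Jund and Hspa1b the 2 shSCR libraries lie far apart.

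Among the FOS and JUN genes no member passed in any comparison. Junb was at 1637 and 1874 CPM in sgSCR, 1178 and 1233 in sgMif, 228 and 1209 in shSCR, and 1568 and 1069 in shMif. Both sgMif libraries were below both sgSCR libraries, and 1 shSCR library was several times below every other. Its log2 fold change was -0.54 in sgMif against sgSCR. Between the control groups, as shSCR against sgSCR, it was -1.29 ± 0.61 (adjusted p 0.252 by edgeR, with 3 of 21 alternatives past the threshold from 7.9e-09 to 0.468), -0.53 without shSCR 1 and -2.94 without shSCR 2, where it passed. Jun was at 3589 and 3943 CPM in sgSCR, 2909.7 and 4007 in sgMif, 2031 and 4036 in shSCR, and 5367 and 4525 in shMif. Both shMif libraries were above all others, and its log2 fold change against shSCR was 0.71 ± 0.31 (adjusted p 0.540 by edgeR, from 7.68e-05 to 1 over the alternatives), 0.29 without shSCR 1 and 1.28 without shSCR 2, where it passed. Fos, at 1554 and 1789.9 CPM in sgSCR, 1371 and 1847 in sgMif, 1150.2 and 1565 in shSCR and 1835 and 1609 in shMif, overlapped between all groups except that both shMif libraries were above both shSCR libraries. Fosl2 was at 282 and 349.9 CPM in sgSCR, 195 and 209 in sgMif, 300.1 and 354 in shSCR, and 343 and 299.9 in shMif. The sgMif libraries were below the other 6, with a log2 fold change of -0.65 ± 0.16 against sgSCR (adjusted p 0.103, with 3 of 21 alternatives past the threshold from 0.00439 to 0.416). Fosl1, which lacks the activation domain of Fos, was at 134 and 151 CPM in sgSCR, 96.6 and 91.7 in sgMif, 58.1 and 90.5 in shSCR, and 120 and 94.4 in shMif, with the sgSCR libraries highest. Fosb ranged from 1368 to 2913 CPM.

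Of the NR4A nuclear receptor genes, which are induced without a known requirement for ligand, Nr4a1 was at 302 and 342 CPM in sgSCR, 171 and 207 in sgMif, 160.5 and 293 in shSCR, and 336 and 241 in shMif. The sgMif libraries were below the sgSCR libraries for Nr4a1, Nr4a2 and Nr4a3 alike, as for 24.2% of all genes. Their median log2 fold change was -0.68, and 0 of 3 passed, against 0.987% of all genes. Among the Krüppel-like factors, Klf4 was at 618 and 791 CPM in sgSCR, 488 and 511 in sgMif, 501 and 545 in shSCR, and 785 and 616 in shMif. Its log2 fold change in sgMif against sgSCR was -0.50 ± 0.17 (adjusted p 0.210 by edgeR; 0.0661 to 0.579 over 21 alternatives, none past the threshold). Klf10 was at 65.7 and 78.6 CPM in sgSCR, 45.4 and 49.5 in sgMif, 92.6 and 75.4 in shSCR, and 67.6 and 69.5 in shMif. The sgMif libraries were the lowest of the 8, with a log2 fold change of -0.60 ± 0.16 (adjusted p 0.115, from 0.0173 to 0.455). Klf6, the least GC-rich immediate-early member at 42.4%, was at 765 and 632 CPM in sgSCR, 516 and 827 in sgMif, 1002 and 974 in shSCR, and 818 and 663 in shMif, with both shSCR libraries highest.

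Myc, the transcription factor gene of growth and proliferation, was at 137 and 133 CPM in sgSCR, 128 and 103 in sgMif, 83.1 and 88.6 in shSCR, and 109 and 101 in shMif. The 4 groups did not overlap except for sgMif and shMif. It was lower in shSCR than in sgSCR, with a log2 fold change of -0.65 ± 0.14 and an adjusted p of 0.0490 by edgeR. The call was made under 8 of 21 alternatives (adjusted p 0.00212 to 0.219), and it was not made when any of the 8 libraries other than shSCR 2 was left out, with adjusted p of 0.161 without shSCR 1, 0.204 without sgSCR 1 and 0.219 without sgSCR 2. With the GC trend removed it was -0.64 (adjusted p 0.0341).

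The IER genes encode short-lived immediate-early proteins. Ier3 was at 397 and 479 CPM in sgSCR, 241 and 188 in sgMif, 333 and 332 in shSCR, and 356 and 207 in shMif. The sgMif libraries were below the sgSCR libraries and overlapped with shMif, with a log2 fold change against sgSCR of -1.03 ± 0.25 (adjusted p 0.102 by edgeR; 5 of 21 alternatives past the threshold, from 2.36e-06 to 0.424). Ier2 and Ier5 were lowest in shSCR 1, at 119 and 147 CPM, beside 282 to 414 and 251 to 370.1 CPM elsewhere.

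The feedback and effector genes end or limit the response. Zfp36 encodes a protein that destabilises AU-rich mRNAs and was at 406 and 449 CPM in sgSCR, 200.3 and 240.4 in sgMif, 134 and 265 in shSCR, and 395 and 228 in shMif. Its log2 fold change in sgMif against sgSCR was -0.96 ± 0.34 (adjusted p 0.220 by edgeR; 4 of 21 alternatives past the threshold, from 1.66e-05 to 0.480). Both sgSCR libraries were the highest for Zfp36, and the other 3 groups overlapped. Gadd45b, a stress sensor gene, was at 98.9 and 111 CPM in sgSCR, 67.7 and 54.9 in sgMif, 47.8 and 67.6 in shSCR, and 86.7 and 70.001 in shMif. Both sgSCR libraries were highest, with log2 fold changes of -0.78 ± 0.21 in sgMif (adjusted p 0.118; 0.00173 to 0.441) and -0.86 ± 0.21 in shSCR (adjusted p 0.0599; 0.000244 to 0.259). Socs3, which inhibits cytokine receptor signalling, was at 350.3 and 409 CPM in sgSCR, 219 and 256 in sgMif, 233 and 311 in shSCR, and 323 and 221 in shMif. It too was highest in the sgSCR libraries, with a log2 fold change in sgMif of -0.67 ± 0.22 (adjusted p 0.184; 0.00758 to 0.486). Dusp1, a phosphatase of MAP kinases, was at 656 and 759.6 CPM in sgSCR, 576 and 585 in sgMif, 434 and 609.7 in shSCR, and 778 and 677 in shMif. Both shMif libraries were above both shSCR libraries and both sgSCR above both sgMif libraries for Dusp1. Btg2, an antiproliferative gene, was at 27.8 ± 2.30 CPM in sgSCR, 37.4 ± 10.9 in sgMif, 18.0 ± 0.885 in shSCR and 30.3 ± 3.76 in shMif (mean ± SD, n = 2). For the joint effect of the Mif label it had the smallest p of the members, with a log2 fold change of 0.59 ± 0.16 and an adjusted p of 0.341 (0.0423 to 0.862 over the alternatives).

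Hspd1 and Hspe1 encode HSP60 and HSP10, the chaperonin and its lid in the mitochondrial matrix, and lie head to head on chromosome 1. Hspd1 was at 370.2 and 340.3 CPM in sgSCR, 467 and 467 in sgMif, 606 and 511 in shSCR, and 339 and 364 in shMif. Hspe1 was at 79.5 and 68.7 CPM in sgSCR, 86.8 and 78.4 in sgMif, 143 and 112 in shSCR, and 85.4 and 87.6 in shMif. Both shSCR libraries were the highest for both genes. In shSCR against sgSCR Hspd1 was higher by a log2 fold change of 0.65 ± 0.14 (adjusted p 0.0414 by edgeR) and Hspe1 by 0.78 ± 0.16 (adjusted p 0.0404). Hspd1 passed under 8 of 21 alternatives (0.000589 to 0.230) and Hspe1 under 9 of 21 (0.00028 to 0.230). Neither passed when any library other than shSCR 2 was left out, with adjusted p of 0.122 for Hspd1 and 0.124 for Hspe1 without shSCR 1. With the GC trend removed the log2 fold changes were 0.55 and 0.76, both past the threshold. In shMif against shSCR Hspd1 had a log2 fold change of -0.67 ± 0.14 (adjusted p 0.352; 0.00281 to 1) and Hspe1 one of -0.56 ± 0.16 (adjusted p 0.455; 0.0377 to 1). Without shSCR 1 these were -0.54 and -0.38, neither past the threshold, and without shSCR 2 they were -0.78 and -0.72 and passed. In sgMif against sgSCR, Hspd1 was the member at an unadjusted p under 0.05 that was higher, at 0.39 ± 0.14 (adjusted p 0.204; 0.119 to 0.501, none of 21 past the threshold).

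The principal starts of Hspd1 and Hspe1 lie 108 bases apart, and the stretch between them holds 2 overlapping matches of the heat shock element searched, the units GAA, TTC and GAA in a row with 2 bases of any kind between neighbours, on either strand, which binds heat shock factor trimers. It is printed because both genes were higher in the same contrast, in build GRCm38.p6 from RefSeq, plus strand, at chr1:55088053-55088082, with the matches in capitals, and a longer first exon of Hspd1 (Hspd1-202) overlaps it.
Hspd1-Hspe1: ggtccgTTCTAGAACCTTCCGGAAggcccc
That element was in 4 of 14 windows of the heat shock members (28.6%), those of Hspd1, Hspe1 and Hsph1. The windows of Hspd1 and Hspe1 overlap, as do both of Hsph1, so they stand for 2 loci. It was in 0 of 25 immediate-early windows and in 0.603% of all windows.

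Hspa1a and Hspa1b encode the inducible cytosolic HSP70 and are near-identical copies: 63.8% of the 31-base words of the Hspa1a transcript occur in Hspa1b, and 88.4% of those in its coding sequence. How the authors' quantification divided reads between them is therefore uncertain. Hspa1b was at 706 and 479.6 CPM in sgSCR, 441 and 611 in sgMif, 179 and 768 in shSCR, and 1242 and 969.7 in shMif. Hspa1a was at 156 and 72.9 CPM in sgSCR, 31.8 and 20.9 in sgMif, 9.41 and 33.2 in shSCR, and 62.0 and 32.3 in shMif. Hspa1a took 18.1 and 13.2% of their summed reads in sgSCR and 3.22 to 6.73% in the other 6 libraries. The log2 fold change of Hspa1a in sgMif against sgSCR was -2.13 ± 0.62 (adjusted p 0.143 by edgeR, with 3 of 20 alternatives past the threshold from 2.43e-22 to 0.485), and it passed without shSCR 1 (0.0489). For the sum of both genes it was -0.36 ± 0.56 (adjusted p 0.783), from 862 and 552 CPM in the sgSCR libraries against 472 and 632 in the sgMif libraries. The sum overlapped between these groups, whereas Hspa1a alone did not. In shMif against shSCR the sum had a log2 fold change of 1.22 ± 0.56 (adjusted p 0.554), with 1304 and 1002 CPM against 188 and 801. Hspa1b alone had 0.52 in that contrast without shSCR 1 and 2.63 without shSCR 2, where it passed.

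The other heat shock members passed in no comparison. Hspa8 was at 2545 and 2414 CPM in sgSCR, 2669.9 and 2573 in sgMif, 3666 and 3352 in shSCR, and 2795 and 2756 in shMif. Hsp90aa1 was at 1114 and 983 CPM in sgSCR, 1085 and 1244 in sgMif, 1859.9 and 1409 in shSCR, and 1280.4 and 1233 in shMif. Both genes were highest in both shSCR libraries, with log2 fold changes against sgSCR of 0.50 ± 0.13 (adjusted p 0.0739 by edgeR) for Hspa8 and 0.64 ± 0.17 (adjusted p 0.0766) for Hsp90aa1. Dnaja1 was at 227 and 215 CPM in sgSCR, 208 and 313 in sgMif, 432 and 339 in shSCR, and 319 and 279 in shMif, with a log2 fold change of 0.80 ± 0.21 in the same contrast (adjusted p 0.0759). Dnajb1, the inducible HSP40, was at 382 and 406 CPM in sgSCR, 207 and 404 in sgMif, 330.3 and 372 in shSCR, and 573 and 470.0 in shMif. Both shMif libraries were highest for Dnajb1. Bag3, a co-chaperone that links HSP70 to small heat shock proteins, was at 214 and 236 CPM in sgSCR, 166 and 210.4 in sgMif, 151 and 195 in shSCR, and 279 and 210.3 in shMif, with both sgSCR libraries above both sgMif and both shSCR libraries. Hsph1, an HSP110 nucleotide exchange factor, ranged from 232 CPM in sgMif 1 to 453 in shSCR 1. Hspb1 had 25 to 180 reads and 0.654 to 4.53 CPM, the lowest level of the 38.

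The spread between the 2 libraries of a group was larger for these genes than for genes at large in 3 of 4 groups. The median absolute log2 ratio over the 38 members was 0.18 in sgSCR, 0.33 in sgMif, 0.43 in shSCR and 0.30 in shMif, beside 0.24, 0.24, 0.28 and 0.23 over all genes tested. In shSCR, 7 of 38 members differed over 2-fold between the libraries, against 7.46% of all genes. Of the 38 members, 21 were higher in sgSCR 2 than in sgSCR 1, 27 in sgMif 2 than in sgMif 1, 29 in shSCR 2 than in shSCR 1 and 4 in shMif 2 than in shMif 1, against 48.1, 51.6, 49.95 and 56.4% of all genes. Of the 11 heat shock members the counts were 2, 6, 5 and 3 in the same order. The heat shock genes of sgMif had a median absolute log2 ratio of 0.47, with Hsph1 at 232 and 416 CPM and Dnajb1 at 207 and 404. With the GC trend removed, the members' medians were 0.086, 0.33, 0.34 and 0.32 in the same order of groups.

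Reads of some members fell on several annotated transcripts. The protein-coding transcript Dusp1-206 took 18.9 to 27.7% of the reads of Dusp1 in the other 6 libraries and 0% in both shSCR libraries, where Dusp1-202 took 91.5 and 92.3%. The retained-intron transcript Egr3-202 took 25.9 to 74.9% of the reads of Egr3, without separating the groups. For Hsph1 the retained-intron share was 19.5 to 36.3%. For Gadd45b it was 26.6% in shSCR 1 and 8.81 to 13.0% elsewhere. These shares are estimates of the authors' quantification and have no test.

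The wider pathway was read from lists of further genes. Of 38 other immediate-early genes, 0 passed in sgMif against sgSCR, against 0.987% of all genes, and 32 had a log2 fold change below 0, against 50.5%, with a median of -0.29. The smallest p belonged to Klf5, which had 104 and 114 CPM in the sgSCR libraries against 55.6 and 57.6 in the sgMif libraries (log2 fold change -0.94 ± 0.19, adjusted p 0.0635 by edgeR). The NF-kB inhibitor gene Nfkbia had 665 and 662 CPM in the sgSCR libraries against 393 and 299.9 in the sgMif libraries (-0.94 ± 0.21, adjusted p 0.0834). The matricellular gene Ccn2 went the other way, with 24.6 and 42.3 CPM in the sgSCR libraries against 91.4 and 61.3 in the sgMif libraries (1.19 ± 0.30, adjusted p 0.105), and Bhlhe40 had -0.60 ± 0.16 (adjusted p 0.123). In shSCR against sgSCR 1 of the 38, the kinase gene Plk2, was higher (1.05 ± 0.13, adjusted p 0.00908), and 3 were lower: Dusp2 (-1.24), Id3 (-1.29) and Arc (-1.21), against 2.23% of all genes higher and 1.79% lower. These 4 genes were named after their values were seen. For shMif against shSCR the count was 0 of 38, against 0.0184% of all genes.

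Of 44 other heat shock and chaperone genes, 0 passed in sgMif against sgSCR, against 0.987% of all genes. There 30 had a log2 fold change above 0 and 14 below 0, against 50.5% of all genes below 0, and the median was 0.23. Those with the smallest p were Fkbp5, an HSP90 co-chaperone (0.79 ± 0.15, adjusted p 0.0555 by edgeR), the small heat shock protein gene Cryab (-1.71 ± 0.33, adjusted p 0.0581), the HSP110 gene Hspa4l (0.64 ± 0.13, adjusted p 0.0704) and the autophagy receptor gene Sqstm1 (-0.47 ± 0.13, adjusted p 0.124). In shSCR against sgSCR, 9 of 44 were higher and 1 lower, against 2.23 and 1.79% of all genes, with a median of 0.36 beside -0.039 over all genes. Hspa4l was at 124 and 110.03 CPM in sgSCR, 182 and 182 in sgMif, 309.5 and 269 in shSCR and 245 and 234 in shMif, and was higher in shSCR by 1.31 ± 0.13 (adjusted p 0.00454). The lower gene, Hspa12a (-3.30 ± 0.71, adjusted p 0.0458), was under 4 CPM in every library and is named after its values were seen. For shMif against shSCR it was 0 of 44, against 0.0184% of all genes.

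Genes of and around the upstream regulators were read the same way. Of 8 genes around the heat shock factors, 0 passed in sgMif against sgSCR, shMif against shSCR or shSCR against sgSCR. Over all genes 0.987, 0.0184 and 4.02% passed there. The medians of the 8 genes were -0.015, 0.084 and 0.14. Hikeshi, which carries HSP70 into the nucleus, had a log2 fold change of 0.45 ± 0.26 in sgMif against sgSCR (adjusted p 0.428 by edgeR), and Trap1 and Hsbp1 had 0.14 and 0.068. Hsf5, at 0.0202 to 0.805 CPM, had -1.98 ± 1.53 (adjusted p 0.549), and 4 of the 8 were below 0, against 50.5% of all genes. Of 21 genes of the serum response factor and CREB pathways, 0 passed in either Mif contrast, against 0.987 and 0.0184% of all genes. The kinase gene Rps6ka2 was lower in shSCR than in sgSCR (-0.79 ± 0.17, adjusted p 0.0484 by edgeR), 1 of 21 against 1.79% of all genes. Within that list Rps6ka3 (0.29), the serum response factor coactivator gene Mrtfb (-0.38), Elk4 (0.28) and Creb1 (0.34) had the smallest p in sgMif against sgSCR, each with an adjusted p of 0.358 to 0.452.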

How the data were processed

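RNA from 8 libraries was analysed, 2 in each of 4 groups taken from the sample labels. The authors deposited 1 transcript table per library with estimated counts and TPM, per the file headers; Trimmomatic, Salmon and build mm10 are named per the submitters' processing notes, and neither versions and options nor library kit and strand were given in those sources. Estimated counts were summed per gene through the GENCODE annotation and rounded to whole numbers. The 569 transcripts without a match held 0.101 to 0.205% of reads and were left out. CPM values come from TMM library sizes, and TPM are the deposited values summed per gene. Depth was 19042235 to 51819308 reads per library.

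Genes passing filterByExpr (minimum count 10, minimum total 15) were tested with edgeR 4.0.16 in R 4.3.3, using the quasi-likelihood test on 4 group means (4 residual degrees of freedom) and Benjamini-Hochberg adjustment over all 16309 genes at 0.05. The Mif label with the system as an additive term gave the joint effect (5 residual degrees of freedom). Alternatives were DESeq2 1.42.0, other scalings and filters, left-out libraries, replicate blocks, library classes by the summed level of 1406 olfactory receptor genes (1000 CPM), and a lowess GC trend (span 0.3). Spread within groups used log2(CPM + 0.5). Fits were tested on simulated data. Motifs were searched in RefSeq promoter windows; Python 3.11.15, pandas 2.3.3, numpy 2.4.6 and matplotlib 3.10.9 were used.

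The members and lists were chosen with earlier results of these data known. Values in every library are given for members past the threshold, for the 10 with the smallest p in sgMif against sgSCR and for the highest member of each role, and for each pathway list at most 4 genes with the smallest p in that contrast are named; a few further members and list genes were named after their values were seen. The check of whether replicate numbers pair libraries is given with the alternatives.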

Additional observations from a re-analysis of the deposited data

How the results depend on the processing

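The log2 fold changes of the 5 members called in shSCR against sgSCR kept their sign under all alternatives. Some members not called there did not, such as Jund (-2.60 to 0.0058) and Jun (-0.89 to 0.11) in that contrast. The count of members called in sgMif against sgSCR, 0, was 7 with DESeq2, 10 with no filter on low counts, 9 in the high library class alone, 3 with the 4 libraries of the comparison alone, 1 with the GC trend removed, and 0 to 2 with 1 library left out. In shMif against shSCR, 0 became 3 with DESeq2, 14 with no filter, 22 in the high library class and 0 to 13 with 1 library left out. For the difference of the Mif effects, 0 became 7, 14, 26, 1 with the GC trend removed and 0 to 15. In shSCR against sgSCR, 5 became 15 with DESeq2, 17 with no filter, 29 in the high library class, 1 with counts scaled by transcript length, 3 with protein-coding transcripts only, 3 with a term for the library class, 2 with 4 libraries alone and 1 to 23 with 1 library left out. The joint count of 0 became 2 with no filter and stayed at 0 with 1 library left out. The high library class holds shSCR 1 but not shSCR 2. These member counts, and those with a block, belong beside the counts over all genes under the same settings, given below. Of all genes it tested, DESeq2 called 6.58, 1.38, 4.54 and 12.9% in these 4 contrasts. Fits with another filter, other transcripts or fewer libraries tested other sets of genes. For protein-coding transcripts in shSCR against sgSCR no count over all genes is given, so that member count has no share beside it. The cause of these changes was not tested. The median spread in sgSCR fell from 0.18 to 0.086 with the GC trend removed, a setting chosen, like its combination with the block, after the data were seen.

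Same-numbered libraries had correlated deviations (0.22 for the guide groups, 0.30 for the hairpin groups, 0.26 between the control groups and 0.51 between sgMif and shMif), but with only 2 libraries a group and no label on shared mice or days the numbers do not establish a pairing. With the replicate block within systems, 0, 0, 0 and 2 members passed in the 4 contrasts in the order above; with the block over both systems 1, 0, 1 and 6; and with the GC trend removed and the block within systems 2, 0, 1 and 3.

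Over all genes the counts moved more widely. Against 161, 3, 15 and 655 genes in these 4 contrasts, DESeq2 called 990, 182, 654 and 1948, the fit with no filter 1494, 662, 1306 and 2425, the high library class 534, 1162, 999 and 2747, counts scaled by length 15, 5, 0 and 287, the block within systems 263, 14, 50 and 210, the block over both systems 459, 10, 68 and 994, the GC trend removed 367, 4, 27 and 888, and the GC trend with the block 664, 12, 84 and 393. The library class term gave 49, 7, 19 and 669. The 4 libraries alone gave 223, 0 and 133 in the 3 contrasts it could be run for, and protein-coding transcripts 0 for the difference. With 1 library left out the ranges were 0 to 356, 0 to 758, 0 to 527 and 60 to 1848. For the joint effect, 0 became 279 with DESeq2, 549 with no filter, 66 as the mean of the separate contrasts and 0 to 1 with 1 library left out.

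With 2 libraries a group, differences smaller than the spread between them could not be detected, and where a group is left with 1 library, that library is assumed to vary like the other groups.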
